A study of Homo sapiens with 6 samples.

Results

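The genes described here are those of glycolysis and of the transcriptional response to low oxygen, 37 genes listed by name. Each was read from a probeset naming no other gene, the brightest where there were several, and 36 of the 37 were measured this way, out of 18404 genes in all. PGAM1, a phosphoglycerate mutase, was not measured by this rule because its 4 probesets also carry the symbol PGAM4. The measured genes were 2 glucose transporters, 15 glycolytic enzymes, 3 regulators of glycolytic flux, 4 HIF subunits and prolyl hydroxylases, and 12 other genes known to be induced by hypoxia.

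RNA was measured on 6 Affymetrix arrays in 2 groups of 3, total RNA being extracted from cultured cells and amplified as sense-strand cDNA. The parental group was the wild-type HEK293 Flp-In line, a derivative of an established human embryonic kidney line that carries a recombination site for transgenes. The TRIM71 group was a HEK293 Flp-In derivative in which a transgene constitutively expresses TRIM71, a TRIM-NHL protein that binds RNA and represses mRNAs, with a FLAG-HA tag (FHA-TRIM71). Both were grown in the same medium with glutamine and serum, and hygromycin B is named for the TRIM71 line only, so effects of TRIM71, of the drug and of line history cannot be told apart. The labels name no treatment with low oxygen, no promoter for the transgene, and do not say whether the line is 1 clone. Only triplicates are mentioned, with no word on separate cultures. The p-values therefore rest on differences among these arrays, which may be technical.

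Glycolysis splits glucose into pyruvate in the cytosol, and proliferating cell lines pass much of that pyruvate to lactate. HIF, a dimer of an oxygen-regulated alpha subunit (HIF1A or EPAS1) and ARNT, switches on many glycolytic enzymes and genes for vessel growth, collagen modification and mitophagy when oxygen falls. Prolyl hydroxylases such as EGLN1 and EGLN3 mark the alpha subunits for destruction while oxygen is present, so HIF activity is set mostly at the protein level, which these arrays do not measure.

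Values are RMA log2 expression, with means ± SD over the 3 arrays of a group, and a log2 fold change is the TRIM71 line minus the parental line. Fold changes and adjusted p come from limma fitted to all 32321 probesets, with Benjamini-Hochberg adjustment over all of them. A gene is said to have risen or fallen where the adjusted p was under 0.05. TRIM71 itself rose from 7.40 ± 0.16 in parental cells to 10.74 ± 0.11 (log2 fold change 3.33, adjusted p = 6.8e-05). Arrays of one group correlated at 0.996 to 0.997, and arrays of different groups at 0.991 to 0.994. Measured markers of other cell types were 5 of blood cells (PTPRC, CD3E, CD14, LYZ and HBB), 5 of endothelium and 6 of fibroblasts. Of these, 0 were called by limma and 1 had an unadjusted p under 0.05. Their mean levels lay between 3.51 and 7.56. Among 10 markers of HEK293 cells 3 rose and 3 fell (60%, against 22.2% of all genes and 31.2% of those at or above the median probeset level). The neurofilament gene NEFL (12.41 to 10.96), INA and KRT8 fell, and VIM (11.11 to 11.51), CDH2 and LHX1 rose. NEFM and SOX11 lay under the median probeset. Because RNA came from whole cultures, fewer cells expressing a gene and less RNA per cell cannot be told apart.

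The members did not move together. Of the 36 measured, 5 rose and 6 fell by limma, or 30.6%, against a background of 22.2% of all genes (10.0% higher, 12.2% lower). The background was 31.2% (14.6% higher, 16.6% lower) of the 11100 genes at or above the median probeset level of 6.94, where every measured member lay, so the share called was close to that of other genes of such levels. By at least 1.5-fold, 5 members were called (SLC2A3, EPAS1, VEGFA, NDRG1 and DDIT4), against 3.97% of all genes and 4.70% of those at or above the median level. The groups did not overlap for 22 of 36 members, against 43.6% of all genes and 58.9% of the brighter ones.

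The glycolytic enzymes held 2 of the 11 calls. Of 15 enzymes 0 rose and 2 fell by limma (13.3%, against 22.2% of all genes and 31.2% of those at or above the median level). This count depended on the fit, being 4 with an intensity trend. With that trend 2334 of all genes rose and 2640 fell, against 1848 and 2244 without it. The enzymes had a median log2 fold change of −0.093 and a median absolute value of 0.093. Of the uncalled enzymes, ALDOC (0.21), HK1 (−0.16) and TPI1 (−0.11) had an unadjusted limma p under 0.05. The log2 fold change was below 0 for 13 enzymes and above 0 for 2. Among the 11100 genes at or above the median level, 5757 were below 0 and 5343 above. Of the 21 other members 5 rose and 4 fell (42.9%), with a median of −0.037 and a median absolute value of 0.21. Over all genes at or above the median level these medians were −0.0088 and 0.14. Without TRIM71 replicate 1 the median of the enzymes was −0.0544, and without parental replicate 2 only 1 enzyme was called. When parental replicate 3 or either of the first TRIM71 arrays (replicates 1 and 2) was left out, 3 of the 36 members rose in place of 5. The difference between enzymes and other members is a description of genes chosen by name, with no test. The median spread between replicates (within-group SD) also differed, at 0.032 for the enzymes and 0.081 for the other members, with 0.060 over the brighter genes.

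**Figure D1:**
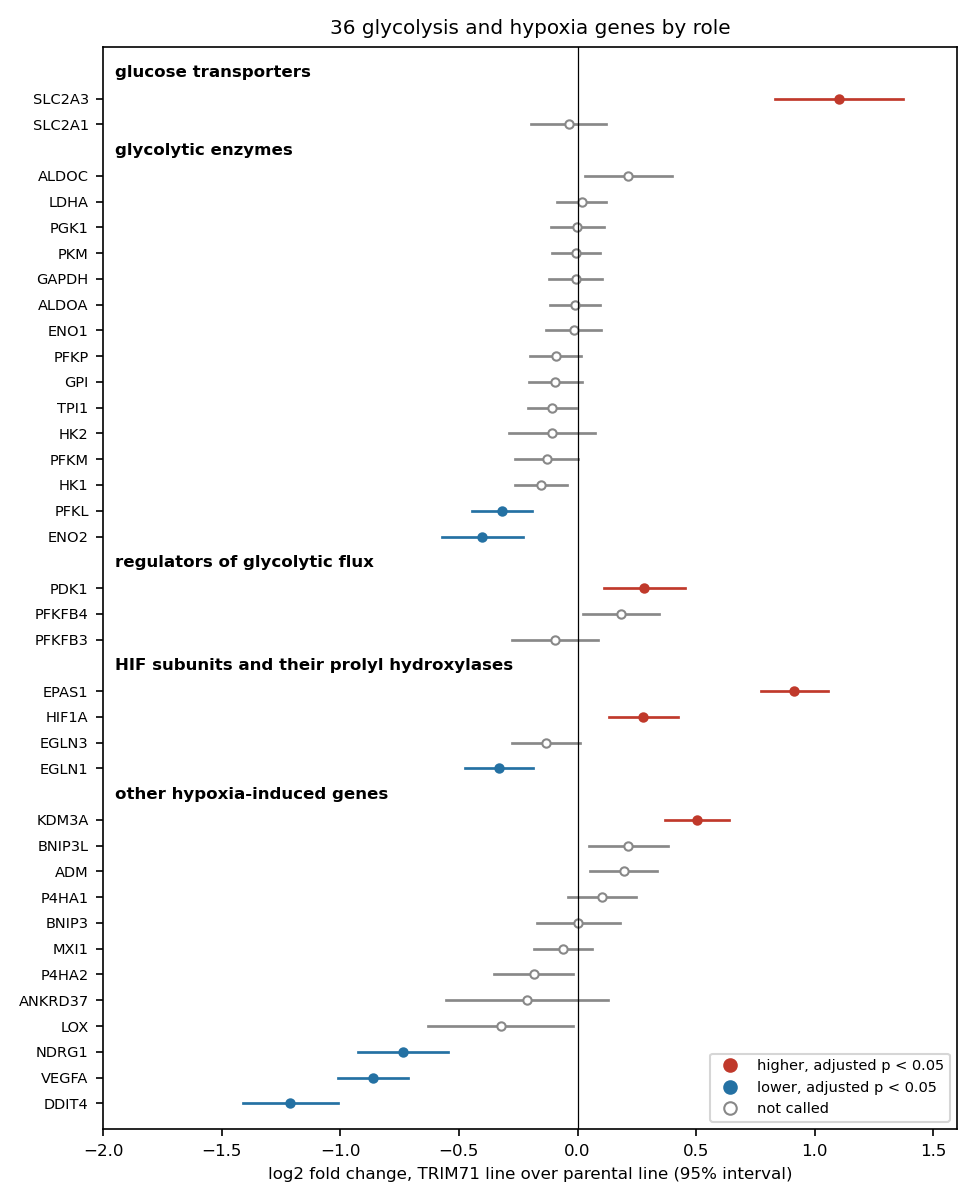
Log2 fold change (TRIM71 line over parental line) with its 95% interval from limma for each of 36 genes, grouped by role; filled symbols passed an adjusted p of 0.05 (red higher, blue lower). The glycolytic enzymes lie between −0.40 and 0.21, while the other members reach from −1.21 (DDIT4) to 1.10 (SLC2A3).

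HIF binds the letters ACGTG or GCGTG near many of its targets, so the start regions of called members were searched for them on both strands. The RefSeq promoter table (GRCh38.p14) held 33 of the 37 genes, with 61 start sites, and the 250 bases before each were searched. SLC2A3, VEGFA, NDRG1 and BNIP3L were not searched. ACGTG, which also lies within the MYC-type motif CACGTG, was in 25 of the 61 windows (41.0%) against 18.5% of all 35116 windows of the same length. GCGTG was in 23 (37.7%) against 32.2%, and either of them in 38 (62.3%) against 43.2%. The windows of all genes were not matched to the members for expression level or base composition. Start sites of the same gene were counted separately, so these shares are not a test of enrichment. The windows below belong to called members with 1 start site in the table, of which EPAS1 rose and DDIT4, EGLN1, ENO2 and PFKL fell, and to PGK1, whose level hardly differed. They are written 5′ to 3′ along the gene's strand, in lower case, with ACGTG or GCGTG (or their reverse complements) in capitals.
EPAS1 (chr2:46297157-46297406, plus strand): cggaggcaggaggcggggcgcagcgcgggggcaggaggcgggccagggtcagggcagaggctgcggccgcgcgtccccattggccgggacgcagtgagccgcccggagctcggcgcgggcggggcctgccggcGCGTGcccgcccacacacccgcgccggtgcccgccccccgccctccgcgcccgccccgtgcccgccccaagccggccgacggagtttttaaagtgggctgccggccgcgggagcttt
DDIT4 (chr10:72273674-72273923, plus strand): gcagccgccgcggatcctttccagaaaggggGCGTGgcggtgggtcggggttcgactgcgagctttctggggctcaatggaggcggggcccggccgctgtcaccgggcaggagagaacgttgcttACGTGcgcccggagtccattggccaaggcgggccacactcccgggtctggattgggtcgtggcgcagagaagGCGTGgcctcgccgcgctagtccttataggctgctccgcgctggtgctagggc
EGLN1 (chr1:231422288-231422537, minus strand): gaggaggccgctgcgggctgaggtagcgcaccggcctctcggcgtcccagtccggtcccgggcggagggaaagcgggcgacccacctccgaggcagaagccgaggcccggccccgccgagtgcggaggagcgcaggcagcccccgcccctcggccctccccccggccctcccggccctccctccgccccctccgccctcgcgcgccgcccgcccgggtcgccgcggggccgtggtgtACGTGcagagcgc
ENO2 (chr12:6914330-6914579, plus strand): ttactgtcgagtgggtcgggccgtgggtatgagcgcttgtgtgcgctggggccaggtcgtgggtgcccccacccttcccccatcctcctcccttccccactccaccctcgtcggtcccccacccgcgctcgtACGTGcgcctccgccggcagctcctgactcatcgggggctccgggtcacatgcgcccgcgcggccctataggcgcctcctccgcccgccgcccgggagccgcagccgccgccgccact
PFKL (chr21:44299803-44300052, plus strand): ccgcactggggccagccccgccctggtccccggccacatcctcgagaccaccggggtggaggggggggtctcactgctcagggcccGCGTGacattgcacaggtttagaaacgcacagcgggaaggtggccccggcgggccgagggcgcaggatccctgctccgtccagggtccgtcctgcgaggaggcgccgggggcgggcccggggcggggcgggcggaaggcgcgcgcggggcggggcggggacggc
PGK1 (chrX:78103998-78104247, plus strand): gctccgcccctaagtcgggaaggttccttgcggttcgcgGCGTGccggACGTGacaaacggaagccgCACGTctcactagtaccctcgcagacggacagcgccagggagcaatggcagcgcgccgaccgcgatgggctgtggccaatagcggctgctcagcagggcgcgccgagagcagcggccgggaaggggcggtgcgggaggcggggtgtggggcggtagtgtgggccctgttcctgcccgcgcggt

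Each of the 4 fallen genes with a window in the table, and PGK1, held at least 1 of these letter groups, as did EPAS1. DDIT4, with the largest fall among the members, held 3, and PGK1, with the smallest difference, also held 3. ACGTG began 13 bases before the start in EGLN1, 118 in ENO2 and 125 in DDIT4. Among the enzymes, 19 of 36 windows held either group (52.8%), and among the other members 19 of 25 (76.0%). These shares count windows and not genes, and HK1 and PFKM had 7 windows each, with a match in 1. By gene, PGAM1 and PKM among the enzymes held no match in any window, nor did EGLN3, P4HA2 and SLC2A1 among the other members searched. The share by gene over all genes was not computed, and genes with more windows have more chances of a match. A match in these windows is a description of letters and not of binding.

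Glucose enters HEK293 cells through facilitative transporters of the SLC2A family, and only 1 of the 2 measured rose. SLC2A3 (GLUT3), a high-affinity transporter best known from neurons, stood at 8.89, 9.26 and 8.83 in the parental arrays and at 10.11, 10.10 and 10.08 in the TRIM71 arrays. The groups were far apart, the TRIM71 arrays nearly coincided, and parental replicate 2 was the nearest to them. Its means were 8.99 ± 0.23 and 10.10 ± 0.01, a 2.15-fold rise (log2 fold change 1.10, SE 0.11, adjusted p = 0.0020). SLC2A14, a neighbouring gene with a near-identical coding sequence, rose as well, from 7.26 to 8.01 (0.75, adjusted p = 0.0032), and how far probes of either probeset bind the other transcript was not tested. SLC2A1 (GLUT1), the basal transporter of most cultured cells and a HIF target, did not pass, with arrays of 10.70, 10.85 and 10.84 against 10.67, 10.82 and 10.79 (−0.04, 95% interval −0.20 to 0.12).

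The enzymes were followed in the order of the pathway. The hexokinases, which trap glucose as glucose phosphate, did not pass, with HK1 at −0.16 (adjusted p = 0.066, groups apart) and HK2 at −0.11 (adjusted p = 0.41, groups overlapping). The HK2 log2 fold change ranged from −0.165 without TRIM71 replicate 2 to −0.054 without TRIM71 replicate 1, and was −0.065 without parental replicate 2. GPI, the isomerase of the next step, differed by −0.09 (adjusted p = 0.24). Of the 3 phosphofructokinase genes, which encode the committing step, PFKL fell. PFKL, the liver-type subunit, read 9.66, 9.73 and 9.71 in the parental arrays and 9.31, 9.43 and 9.41 in the TRIM71 arrays, without overlap. It was 1.25-fold lower (log2 fold change −0.32, SE 0.05, adjusted p = 0.010), while the muscle-type PFKM (−0.13, adjusted p = 0.18) and platelet-type PFKP (−0.09, adjusted p = 0.22) did not pass. The 95% interval of PFKL, −0.45 to −0.19, overlapped that of PFKM, −0.26 to 0.0035, and a difference between the genes was not tested.

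In the later steps of the pathway, ENO2 fell and the other enzymes did not pass. ENO2, the neuronal form of enolase, was at 9.20, 9.28 and 9.16 in the parental arrays and at 8.68, 8.87 and 8.88 in the TRIM71 arrays, again without overlap. Its means of 9.21 ± 0.06 and 8.81 ± 0.11 were 1.32-fold apart (log2 fold change −0.40, SE 0.07, adjusted p = 0.013), but without parental replicate 2 the adjusted p was 0.053. ENO1, the enolase of most tissues, read 13.14, 13.09 and 13.06 against 13.04, 13.10 and 13.11, with an interval of −0.13 to 0.10. The brain-type aldolase ALDOC differed in the other direction, with parental arrays of 7.68, 7.91 and 7.77 and TRIM71 arrays of 7.99, 8.08 and 7.94. Its groups did not overlap, yet it did not pass (0.21, interval 0.03 to 0.40, adjusted p = 0.115). The aldolase ALDOA, the dehydrogenase GAPDH, the kinase PGK1, ENO1, the pyruvate kinase PKM and the lactate dehydrogenase LDHA all lay within 0.05 of 0, and TPI1, the triose isomerase, at −0.11 (adjusted p = 0.15).

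For the enzymes within 0.05 of 0, the values limit how large a difference could have been missed. The intervals of GAPDH (−0.12 to 0.10), PKM (−0.11 to 0.09), PGK1 (−0.11 to 0.11) and LDHA (−0.09 to 0.12) exclude changes of 1.2-fold in either direction on this scale. These are very bright probesets. GAPDH averaged 13.31 where the highest value in the whole table was 13.81, and 7 enzymes (GPI, TPI1, GAPDH, PGK1, ENO1, PKM and LDHA) had means of at least 12, a level reached by 2.14% of probesets. Of these 7, 0 were called by limma, 1 had an unadjusted p under 0.05 (TPI1), and the largest absolute difference was 0.11. Of the 8 dimmer enzymes 2 were called, where 31.2% of all genes at or above the median level were. The share called among all genes with means of at least 12 was not computed, so these counts show no effect of brightness. Whether signal close to the top of the range is compressed was not tested. The 4 probesets shared by PGAM1 and PGAM4 differed by −0.02, −0.05, −0.0022 and 0.03, with adjusted p of 0.61 to 0.98. GAPDH, LDHA and TPI1 also have processed pseudogenes whose transcripts, if any, the probes may bind.

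**Figure D2:**
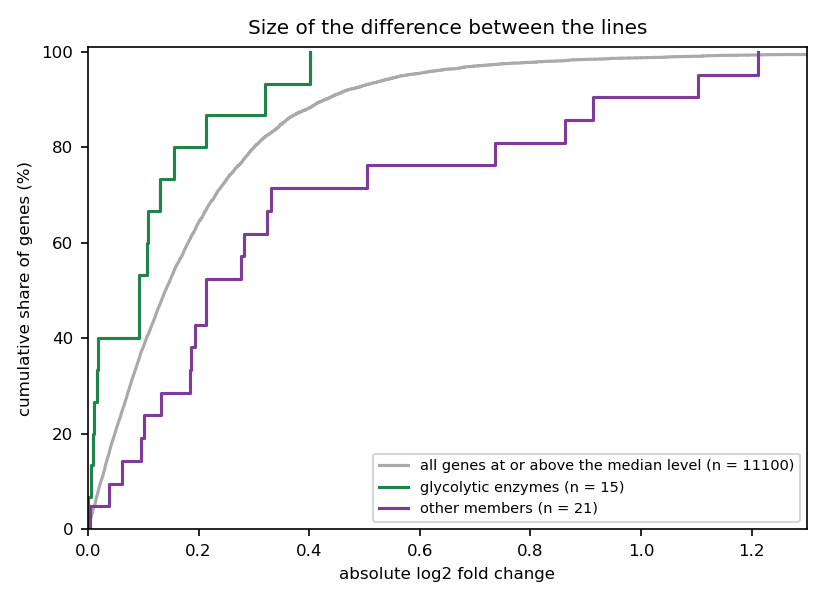
Cumulative share of genes (%) by absolute log2 fold change for the 15 glycolytic enzymes, the 21 other members and the 11100 genes at or above the median probeset level. The enzymes rise fastest, with a median of 0.093, and the other members slowest, with a median of 0.21, the gray line of all genes lying between them at 0.14.

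Flux through glycolysis is tuned by enzymes outside the main chain, and 1 of 3 of these rose. PDK1, a kinase that inhibits pyruvate dehydrogenase and a classical HIF target, read 10.24, 10.43 and 10.20 in the parental arrays and 10.58, 10.58 and 10.56 in the TRIM71 arrays. The groups did not overlap, and the TRIM71 arrays again nearly coincided. The difference was small (10.29 ± 0.13 to 10.57 ± 0.01, log2 fold change 0.28, adjusted p = 0.041), and the call was lost when any array but parental replicate 2 was left out, at adjusted p of 0.107 and 0.115 for parental replicates 1 and 3 and 0.122, 0.112 and 0.090 for TRIM71 replicates 1, 2 and 3. PFKFB3 and PFKFB4, which make and remove the main allosteric activator of phosphofructokinase, did not pass at −0.10 (adjusted p = 0.48) and 0.18 (adjusted p = 0.12). The PFKFB3 log2 fold change was −0.030 without parental replicate 2 and −0.050 without TRIM71 replicate 1.

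The mRNAs of the HIF alpha subunits HIF1A and EPAS1 rose, and that of a hydroxylase that restrains them fell. The third alpha subunit, HIF3A, lay under the median probeset level and did not pass (6.20 to 6.19, adjusted p = 0.84). EPAS1 (HIF-2 alpha), the subunit best known from endothelium and kidney, read 7.90, 7.87 and 8.003 in the parental arrays and 8.78, 8.90 and 8.83 in the TRIM71 arrays. All TRIM71 arrays lay well above all parental arrays, with means of 7.93 ± 0.07 and 8.84 ± 0.06, a 1.88-fold rise (log2 fold change 0.91, SE 0.06, adjusted p = 5.0e-04). HIF1A, the widely expressed alpha subunit, was at 11.65, 11.54 and 11.54 against 11.91, 11.88 and 11.77, without overlap (11.58 ± 0.06 to 11.85 ± 0.08, log2 fold change 0.28, SE 0.06, adjusted p = 0.027). The call was lost when 1 of 4 arrays was left out, at adjusted p = 0.096 and 0.086 for parental replicates 2 and 3 and 0.094 and 0.089 for TRIM71 replicates 1 and 2.

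EGLN1 (PHD2), the main hydroxylase acting on HIF1A and itself induced by HIF, fell from 10.00, 10.09 and 9.94 to 9.64, 9.66 and 9.74. The groups were separate, with a 1.26-fold difference (log2 fold change −0.33, SE 0.06, adjusted p = 0.014) whose call was lost without TRIM71 replicate 1 (adjusted p = 0.056) and without its replicate 2 (0.053). EGLN3 (PHD3), a relative that responds strongly to hypoxia, did not pass at −0.13 (interval −0.28 to 0.01), although its groups did not overlap.

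Among the 12 other hypoxia-induced genes, 1 rose and 3 fell (33.3%, near the 31.2% of genes at or above the median level), and these falls were the largest differences of the group. DDIT4 (REDD1), an inhibitor of mTORC1 signalling induced by hypoxia, starvation and stress, went from 10.00, 10.18 and 10.00 to 8.72, 8.95 and 8.88. The gap between the groups exceeded 1 on the log2 scale, and DDIT4 was 2.32-fold lower (10.06 ± 0.11 to 8.85 ± 0.12, log2 fold change −1.21, SE 0.08, adjusted p = 5.7e-04). VEGFA, the vascular growth factor, fell from 9.70, 9.74 and 9.56 to 8.80, 8.78 and 8.83. Its TRIM71 arrays lay close together and far below the parental ones, 1.82-fold lower on average (log2 fold change −0.86, SE 0.06, adjusted p = 6.2e-04).

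NDRG1, a stress-responsive protein of differentiation and a common marker of hypoxic cells, fell from 10.45, 10.66 and 10.41 to 9.70, 9.80 and 9.81. It was 1.67-fold lower with no overlap (log2 fold change −0.74, SE 0.08, adjusted p = 0.0023). KDM3A, a histone H3 demethylase that needs oxygen and is induced by HIF, moved the other way, from 8.70, 8.73 and 8.71 to 9.14, 9.29 and 9.22. Its parental arrays hardly differed, and the rise was 1.42-fold (log2 fold change 0.50, SE 0.06, adjusted p = 0.0026). DDIT4 and VEGFA are also known to be induced by ATF4, a transcription factor of amino acid and endoplasmic reticulum stress. ATF4 mRNA fell in the same comparison from 11.26 to 10.62 (−0.64, adjusted p = 0.0013). As the mean of all its probesets ATF4 fell by less (−0.313, adjusted p = 0.0018). Its part in the lower values of these genes was not tested.

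**Figure D3:**
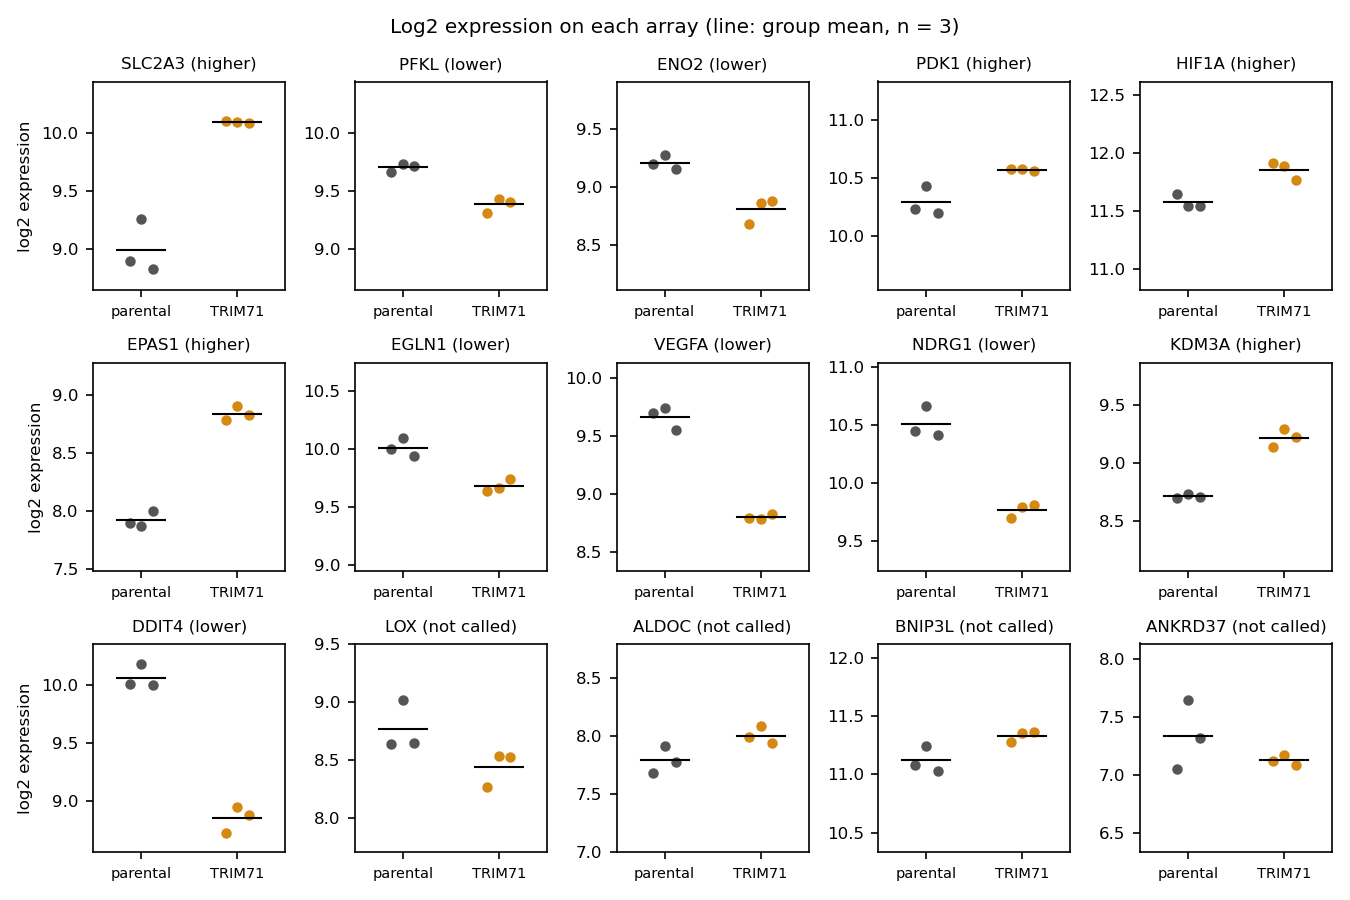
Log2 expression on each array for the 11 called members and the 4 uncalled members with the largest differences; points are arrays, lines are group means (n = 3), and each panel spans the same range of 1.8. All panels but ANKRD37 show groups that do not overlap, and the parental array of replicate 2, drawn in the middle, is the highest parental array in all panels but HIF1A and EPAS1.

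The remaining 8 genes of this role did not pass and ran in both directions. LOX, the lysyl oxidase that crosslinks collagen, had the largest uncalled difference, with 8.64, 9.02 and 8.65 against 8.27, 8.54 and 8.53 (−0.32, interval −0.63 to −0.02, adjusted p = 0.15). Its groups were just apart, and without parental replicate 2, the highest array, the difference of LOX was −0.198. ANKRD37, a small ankyrin-repeat protein and HIF target, spread from 7.06 to 7.65 in the parental arrays and from 7.09 to 7.18 in the TRIM71 arrays, which lay inside that range (−0.21, adjusted p = 0.39). Without parental replicate 2 the difference of ANKRD37 was −0.061, and without parental replicate 1 it was −0.356. BNIP3L, a mitophagy receptor, read 11.08, 11.25 and 11.03 against 11.28, 11.36 and 11.37, apart but not called (0.21, adjusted p = 0.090). Its relative BNIP3 was at 10.58 ± 0.13 and 10.58 ± 0.03. The vasoactive peptide gene ADM (0.19, adjusted p = 0.074), the collagen prolyl hydroxylases P4HA1 (0.10) and P4HA2 (−0.19, adjusted p = 0.13) and the MYC antagonist MXI1 (−0.06) did not pass either. The MXI1 log2 fold change was −0.034 without parental replicate 2 and −0.038 without TRIM71 replicate 1.

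Parental replicate 2 had the highest parental value for 18 of the 21 members that are not glycolytic enzymes (85.7%), and for 11 of the 12 other hypoxia-induced genes. Among all 11100 genes at or above the median level it was the highest parental array for 26.5%, and among the 15 enzymes for 8. In the 35 further hypoxia-induced genes described below it was the highest for 19. The median deviation of the 21 members from their parental means was 0.099 on that array, against −0.057 and −0.049 on the other parental arrays. The labels name nothing that sets this array apart, and its part in the results was tested only by leaving it out. Without it, the fall of DDIT4 was −1.15, of VEGFA −0.83 and of NDRG1 −0.66, the rise of SLC2A3 was 1.23, and BNIP3L passed (0.28, adjusted p = 0.049), while HIF1A and ENO2 lost their calls as given above.

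Of the 5 members that rose, EPAS1, KDM3A and PDK1 lie on chromosome 2. Genes of this chromosome at or above the median level were higher on the whole, with a median log2 fold change of 0.17 over 740 genes, 297 called higher and 47 lower. The medians of the other 22 chromosomes lay between −0.08 and 0.08. The shift ran along the chromosome, with medians between −0.0020 and 0.34 in 30 bins of 25 neighbouring genes (the last holding 15), in RefSeq gene order. The 50 nearest genes had a median of 0.20 around EPAS1, 0.095 around KDM3A and 0.20 around PDK1.

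EPAS1 (0.91) and KDM3A (0.50) each exceeded all but 1 of their 50 neighbours. PDK1 (0.28) was exceeded by 18 of its 50, and its 95% interval of 0.11 to 0.45 held the median of its neighbours. HK2, the fourth member on the chromosome, lay at −0.11, below 38 of its 50 neighbours, whose median was 0.10. Of all 1154 genes of chromosome 2, 34.4% were called, 28.0% higher and 6.41% lower, against 10.0% higher over all chromosomes. Without the genes of chromosome 2, 2 of 32 members rose, SLC2A3 and HIF1A, and the same 6 fell. How far the chromosome-wide shift enters the values of EPAS1, KDM3A, PDK1 and HK2 was not tested.

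**Figure D4:**
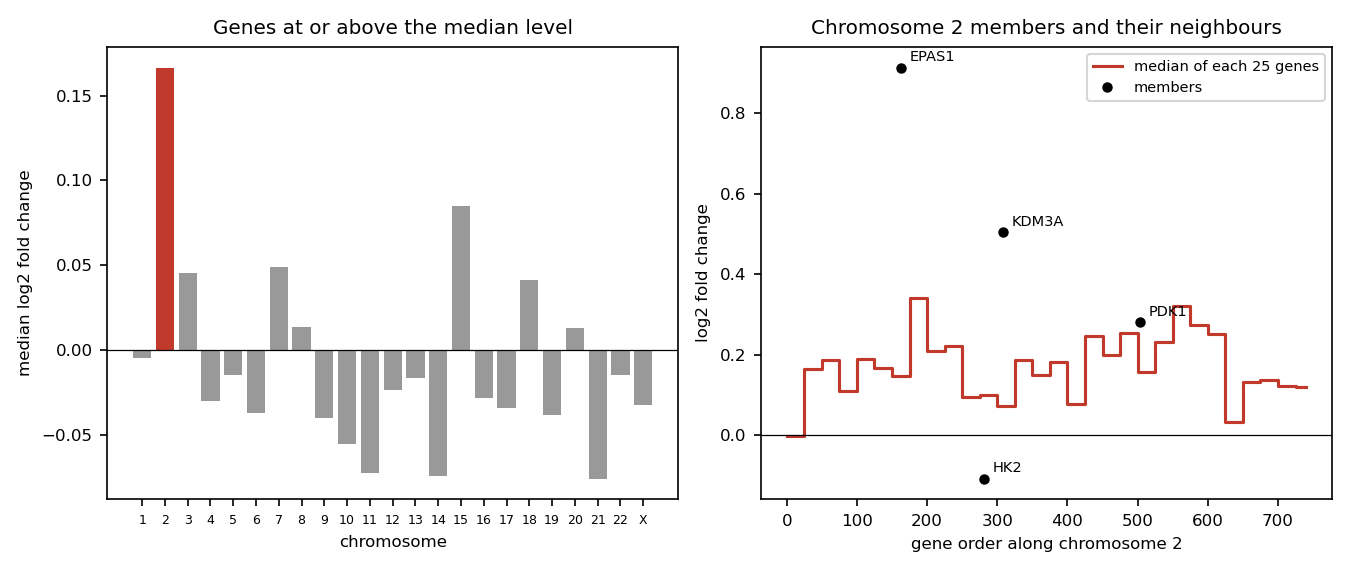
Left, median log2 fold change of the genes at or above the median probeset level on each chromosome (chromosome 2 in red); right, the medians of consecutive groups of 25 such genes along chromosome 2 and the 4 members that lie there. Chromosome 2 stands at 0.17, EPAS1 and KDM3A lie above the bins around them, PDK1 nearer to them and HK2 below them.

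Other genes of the pathway, listed by function, also changed in both directions. Of 14 measured partners of HIF and parts of its degradation machinery, 3 rose and 1 fell (28.6%, against 22.2% of all genes and 31.2% of those at or above the median level, where all but HIF3A lay). The coactivator EP300, an acetyltransferase recruited by HIF, rose by 0.40 (9.81 ± 0.03 to 10.21 ± 0.05, adjusted p = 0.0037). Its relative CREBBP (0.26, adjusted p = 0.015) and CITED2 (0.26, adjusted p = 0.039), a HIF-induced protein that competes for these coactivators, rose by less. ARNT, the constant partner of both alpha subunits, fell from 10.25 ± 0.07 to 9.89 ± 0.06 (−0.36, adjusted p = 0.0092). VHL, which recognises hydroxylated alpha subunits for destruction, did not pass (−0.07, adjusted p = 0.40). The CREBBP call was lost without parental replicate 2 (adjusted p = 0.061), and without TRIM71 replicate 1 (0.056) and replicate 2 (0.056). That of CITED2 was lost without any of the arrays but TRIM71 replicate 1, at adjusted p from 0.086 to 0.111.

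Of 25 measured genes of lactate, pyruvate and other glycolytic steps, 2 rose and 6 fell (32.0%, against 22.2% of all genes and 31.2% of those at or above the median level). HK3, HKDC1, ENO3, PKLR, LDHC, PFKFB1, GPD1 and SLC16A7 lay under that level, and of these only SLC16A7 was called. The list is therefore dimmer than the set that gave 31.2%. SLC16A7, a monocarboxylate transporter, fell by 1.36 on the log2 scale (adjusted p = 0.0011), from 6.36 ± 0.17 to 5.002 ± 0.17, both below the median probeset. TXNIP, an inhibitor of glucose uptake that is induced by glucose, fell from 10.69 ± 0.15 to 9.78 ± 0.11 (−0.90, adjusted p = 0.0021). DLAT, a core subunit of pyruvate dehydrogenase, fell by 0.44 (adjusted p = 0.0051). TIGAR, which lowers the activator of phosphofructokinase, rose by 0.54 (adjusted p = 0.0033), and PDP1, the phosphatase that opposes the PDK kinases, by 0.34 (adjusted p = 0.016). The PDP1 call was lost when parental replicate 2 (adjusted p = 0.053) or 3 (0.057) was left out. LDHB, the other main lactate dehydrogenase subunit, did not pass (0.04, adjusted p = 0.63).

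Of 35 further measured genes known to be induced by hypoxia, 10 rose and 4 fell, with a median log2 fold change of 0.03. That was 40.0%, against 22.2% of all genes and 31.2% of those at or above the median level. PPP1R3C, ANGPTL4, EPO, RAB20 and IGFBP3, the last of which rose, lay under that level. BHLHE41, a transcriptional repressor, rose from 8.72 ± 0.08 to 9.59 ± 0.03 (0.87, adjusted p = 5.0e-04). FLT1, a receptor for VEGFA, rose from 7.53 ± 0.05 to 8.22 ± 0.08 (0.69, adjusted p = 0.0011), opposite to its ligand. ERRFI1, a feedback inhibitor of the EGF receptor, rose by 0.40 (adjusted p = 0.0029). STC2, a secreted glycoprotein, fell from 9.72 ± 0.05 to 8.63 ± 0.12 (−1.09, adjusted p = 5.3e-04), as did the lipoprotein receptor VLDLR (−0.67, adjusted p = 0.0023) and the oxidase ERO1A (−0.55, adjusted p = 0.0030).

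**Figure D5:**
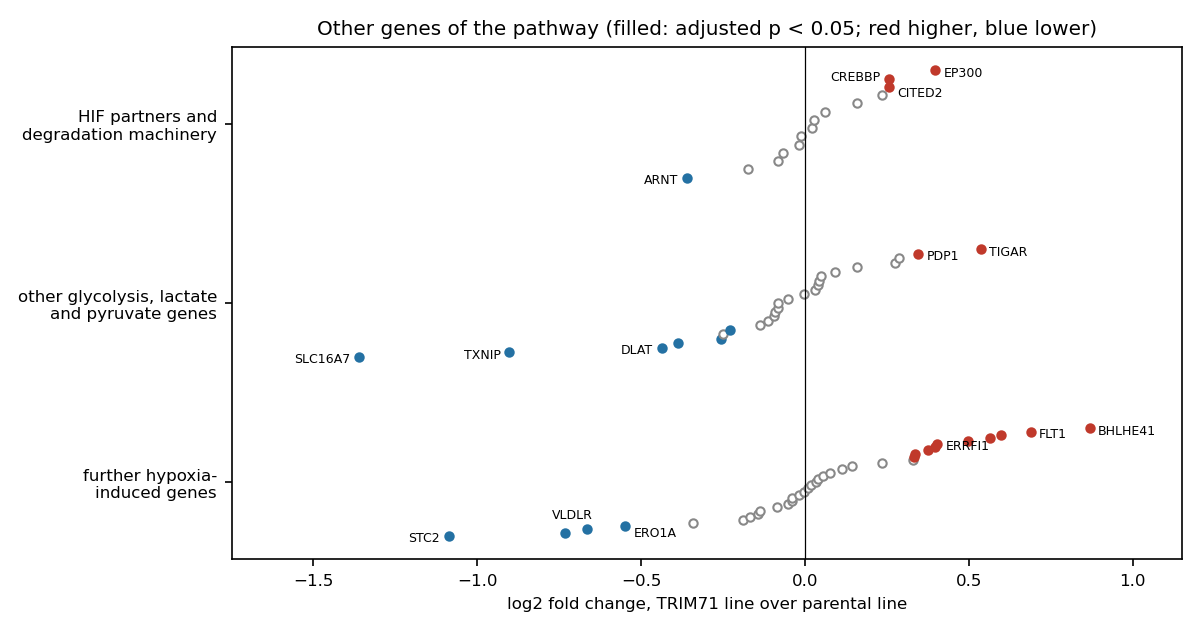
Log2 fold change of 14 HIF partners and degradation factors, 25 other glycolysis, lactate and pyruvate genes, and 35 further hypoxia-induced genes; each point is a gene, ordered by value within its list, and filled points passed an adjusted p of 0.05. Called genes lie on both sides of 0 in each list, from SLC16A7 at −1.36 to BHLHE41 at 0.87.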

How the data were processed

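The authors deposited log2 expression values for every array. The submitters' processing notes list RMA and affy. RMA corrects background, quantile-normalizes arrays and summarises probes, so a change in total mRNA per cell cannot be seen. Their versions and the annotation build are not given in the sources used here. Of 32321 probesets, 19158 carried 1 gene symbol, 1388 several and 11775 none. Gene IDs of 19128 of the first were found in RefSeq (GRCh38.p14).

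The difference between groups was fitted by lmFit and eBayes of limma (version 3.58.1, under R 4.3.3) with neither trend nor filter, tested beforehand on simulated data. Two-sided exact permutation tests of single genes cannot give a p under 0.1 with 3 against 3 arrays, and every called member had a p of 0.1. Array medians lay between 6.90 and 6.97, and the number of arrays limits the precision.

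All members were accounted for, with every array given for called members and the 4 largest uncalled differences. Up to 3 called genes per direction of each further list were named. Members and lists were chosen with earlier results of these data known. SLC2A14, ATF4, VHL, LDHB and the called HEK293 markers were named after their values had been seen. HIF3A, and genes named for lying under the median level (such as NEFM, SOX11 and IGFBP3), were likewise outside the naming rule. The alternatives were an intensity trend, robust estimation, normalizations, filters, other probeset choices, array weights, a replicate block, stricter thresholds and each array left out. Leaving out chromosome 2 was added after the data had been seen.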

Additional observations from a re-analysis of the deposited data

How the results depend on the processing

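SLC2A3, EPAS1, VEGFA, NDRG1 and DDIT4 kept their calls under all 19 alternatives other than leaving out chromosome 2, and KDM3A under all but a test against a fold of 1.2. Of the 36 members 5 rose. This count was 3 with a replicate block, 3 at an adjusted p under 0.01, 2 against a fold of 1.2, 2 without the genes of chromosome 2 (chosen after seeing the data), and 3 to 5 with 1 array left out. It was 7, and 7 to 8 fell, with an intensity trend, with trend and robust estimation, with only probesets at or above the median level, with 1 probeset per gene and with the mean of a gene's probesets, ADM and BNIP3L being added among those that rose in these 5. Calls over all genes also increased with an intensity trend (2334 higher and 2640 lower, against 1848 and 2244 as reported). With trend and robust estimation they were 2310 and 2610. Counts over all genes are not given here for the rest of these settings. Of 6 that fell, 3 were left at an adjusted p under 0.01, 3 against a fold of 1.2, and 5 to 6 with 1 array left out. Enzymes called, 2 as reported, were 4 with an intensity trend and 4 with trend and robust estimation (HK1 and TPI1 added), 0 at an adjusted p under 0.01, 0 against a fold of 1.2, and 1 to 2 with 1 array left out. Other members called, 9 as reported, were 5 against a fold of 1.2 and 6 to 9 with 1 array left out. The enzymes' median was −0.055 without chromosome 2 and −0.0927 to −0.0544 with 1 array left out. That of the other members was −0.07 to −0.01 with 1 array left out. Without chromosome 2 it was −0.078, which was lower than that of the enzymes, the reverse of the order reported.

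Same-numbered deviations from the group means correlated at 0.07, −0.19 and 0.11. These values cannot show whether the replicate numbers pair the arrays, as deviations from a group mean are not independent within the group. The labels do not say whether a replicate number marks a shared culture or day. With the replicate block PDK1 (adjusted p = 0.080), HIF1A (0.053) and EGLN1 (0.056) lost their calls. PDK1 also did so after quantile normalization (0.056), cyclic loess (0.055) and array weights (0.062), and HIF1A after median centring (0.059). HK1 was called under 8 alternatives. The cause of these changes was not tested.

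Of the members within 0.05 of 0, all but LDHA changed sign under some alternative, and none was called. BNIP3 was −0.013 after quantile normalization, −0.0012 after median centring, −0.010 after cyclic loess, −0.023 with array weights, and −0.043 to 0.077 with 1 array left out. PKM was 0.0029 after quantile normalization. With 1 array left out, PGK1 ranged from −0.025 to 0.018, ENO1 from −0.033 to 0.0047, ALDOA from −0.025 to 0.00059, GAPDH from −0.029 to 0.0080 and SLC2A1 from −0.084 to 0.0075. With 3 arrays a group, small changes of dim or variable genes may be missed. SLC16A7 had no value where probesets under the median level were left out.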
